A study of Mus musculus with 5 samples.

Results

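Cycling mesenchymal cells are here the fibroblasts, pericytes, smooth muscle and mesothelial cells of the lung that held transcripts of Mki67 and Top2a, genes made by cells that replicate their DNA or divide. They were picked out of single-cell RNA libraries of whole mouse lungs at embryonic day 18.5, just before birth, by the transcripts counted in each cell. A barcode (1 droplet) was a member when it held at least 500 genes and at most 15% mitochondrial unique molecular identifiers (UMIs, each counting 1 captured transcript). It also needed at least 1 UMI of both Mki67 and Top2a and at least 1 UMI of 2 or more of 5 mesenchymal genes (Pdgfra, Pdgfrb, Tbx5, Meox2 and Tcf21). Ptprc of immune cells, Epcam of epithelium and Cdh5 of endothelium had to be at 0. This gave 139 cells of 2266 mesenchymal cells, which are the cells that meet the same rule without Mki67 and Top2a, and of 19491 kept barcodes in all. Of the other mesenchymal cells, 336 held only one of Mki67 and Top2a and 1791 held neither. The 1791 are called non-cycling below.

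Lungs of 2 Zswim8+/- embryos (libraries Het1 and Het2) were compared with those of 3 Zswim8-/- embryos (libraries KO1, KO2 and KO3). Each embryo gave 1 library, and no wild-type lung is among the samples analysed here. The lungs were untreated apart from digestion with collagenase and DNase and lysis of red cells. The labels give neither the deleted part of Zswim8 nor a Cre driver, and they name no litter or day, so p-values measure the spread between these embryos. UMIs of Y-linked genes and Xist mark KO1 and KO2 as female and the other 3 libraries as male, so sex and genotype overlap in part.

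Zswim8 is the substrate adaptor of a ubiquitin ligase that destroys microRNAs bound to certain trigger transcripts, and its loss leaves those microRNAs more abundant. Among the known substrates are miR-322 and miR-503, which belong to the wider miR-15/16 family and restrain the G1 to S step of the cell cycle by repressing D-type and E-type cyclins and Cdc25a. The lung mesenchyme builds the collagen and elastin scaffold of the future air sacs, and its cells divide while doing so. The seed, the stretch that pairs with targets, is shown in capitals in the 4 family members below (RefSeq, GRCm38.p6), because known targets of this family form one of the gene lists below.

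miR-322-5p: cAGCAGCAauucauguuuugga

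miR-503-5p: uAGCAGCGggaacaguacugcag

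miR-16-5p: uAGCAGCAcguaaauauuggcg

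miR-15a-5p: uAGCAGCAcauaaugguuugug

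The genes for miR-322 and miR-503 lie on the minus strand at chrX:53054306-53054327 and chrX:53054027-53054049. The seeds of miR-322, miR-16 and miR-15a are identical, and that of miR-503 differs from them in its last base. MicroRNAs themselves are not captured by these libraries.

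The files held 50355 barcodes and 56608582 to 93708304 UMIs per library. Between 3129 and 4820 barcodes per library were kept. Of the kept barcodes, 34 were shared by a pair of libraries, 1 of these was a member in one of its libraries, and 0 were members in both. Red-cell barcodes, with under 500 genes and over 50% haemoglobin, served as a measure of free RNA: 2.57% to 3.70% of them held an Mki67 UMI. Levels below are UMIs per 1000000 UMIs of the genes tested (CPM), with edgeR's TMM scaling. Zswim8 in the members was 66.1 CPM in Het1, 45.3 in Het2, 51.3 in KO1, 66.7 in KO2 and 51.5 in KO3. Its edgeR log2 fold change was 0.00 (SE 0.27, adjusted p = 0.999), and in non-cycling cells it was 0.30 (adjusted p = 0.379). The assay reads only the 3′ end, so a transcript that still carries its 3′ end is counted, and the direction of each comparison rests on the labels.

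The label was checked on Col1a1, which the rule did not use. Col1a1, a main collagen chain, was found in every member of 4 libraries and in 43 of 44 in KO3, against 10.8% to 27.3% of immune cells. The detection of the 5 mesenchymal genes was set by the rule and is given as a description. Pdgfra, a receptor of fibroblasts, was found in 89 of 139 members, or 64.0%. Pdgfrb was found in 73.4%, Tbx5 in 68.3%, Tcf21 in 61.2% and Meox2 in 35.3% of members. KO1 stood apart here: Pdgfra was found in 37.5% of its 24 members against 63.3% to 81.0% in the other libraries, and Pdgfrb in 91.7% against 65.0% to 81.0%.

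Some members lay close to the edges of the rule. Of the 139, 52 held exactly 2 of the 5 mesenchymal genes, 46 held 3, 27 held 4 and 14 held all 5. A further 40 barcodes had both cycling genes but only 1 of the 5. Mki67 rested on 1 UMI in 30 members and Top2a in 21, with 16 resting on 1 UMI of each. Just outside, 177 mesenchymal cells held Mki67 alone and 159 held Top2a alone.

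Members were deep cells. Their median UMI count was 19241 and 23018 in the Het libraries and 22157, 18169 and 21960 in the KO libraries, against 9325 to 11570 in non-cycling cells. In 13 members it passed 60000, and these 13 held 48.5% of all member UMIs in Het2 and 47.6% in KO1 but 7.88% in KO3. A barcode with at least 3 markers of another lineage was counted as mixed: 42 of 139 members were, 33 of them by epithelial markers, against 18.4% of non-cycling cells. KO1 had the highest share of mixed members at 50%, and the other libraries lay between 23.8% and 30%. The count of markers was not adjusted for depth, and the epithelial markers include Sftpc, which free RNA also holds. Leaving mixed barcodes out left KO1 with 12 members and 204023 of its 822350 member UMIs. A simulated-doublet score marked 10 members.

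Over all libraries 6.13% of mesenchymal cells were cycling, and the share did not separate the genotypes. It was 8% in Het1 (30 of 375 cells, exact 95% interval 5.46% to 11.2%) and 5.38% in Het2 (20 of 372). In KO1 it was 4.40% (24 of 546), in KO2 5.54% (21 of 379) and in KO3 7.41% (44 of 594). All 3 KO libraries lay below Het1, and KO2 and KO3 lay above Het2, so the groups overlapped. Het averaged 6.69% ± 1.86 (SD, n = 2) and KO 5.78% ± 1.52 (SD, n = 3), a difference of -0.91 percentage points (exact permutation test over 5 libraries, two-sided, p = 0.6). With 10 arrangements the smallest p that test can give is 0.1, and the intervals cover counting error only.

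Because the rule needs UMIs of several genes, the share was also taken with every cell thinned to 5000 UMIs. It was then 4.51% and 3.64% in Het and 2.24%, 3.44% and 3.58% in KO, where each KO library lay below both Het libraries (exact permutation p = 0.2). Cells under 5000 UMIs were left out, which were 22, 14, 28, 5 and 7 mesenchymal cells and no member, in the order Het1 to KO3. The rule was then applied again to the thinned counts, so many members no longer met it. It gave 59 cycling cells of 1730 mesenchymal cells, at 13, 10, 9, 10 and 17 per library in the same order. At 3000 UMIs the groups overlapped (exact permutation p = 0.8). With either gene enough, the share at full depth was 21.1% and 21.5% in Het and 18.3%, 17.4% and 25.3% in KO (exact permutation p = 1). Without the mixed barcodes it was 6.94% and 4.39% against 3.16%, 4.89% and 6.88% (exact permutation p = 0.7). Leaving out Het1 turned the difference to 0.405 percentage points.

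**Figure D1:**
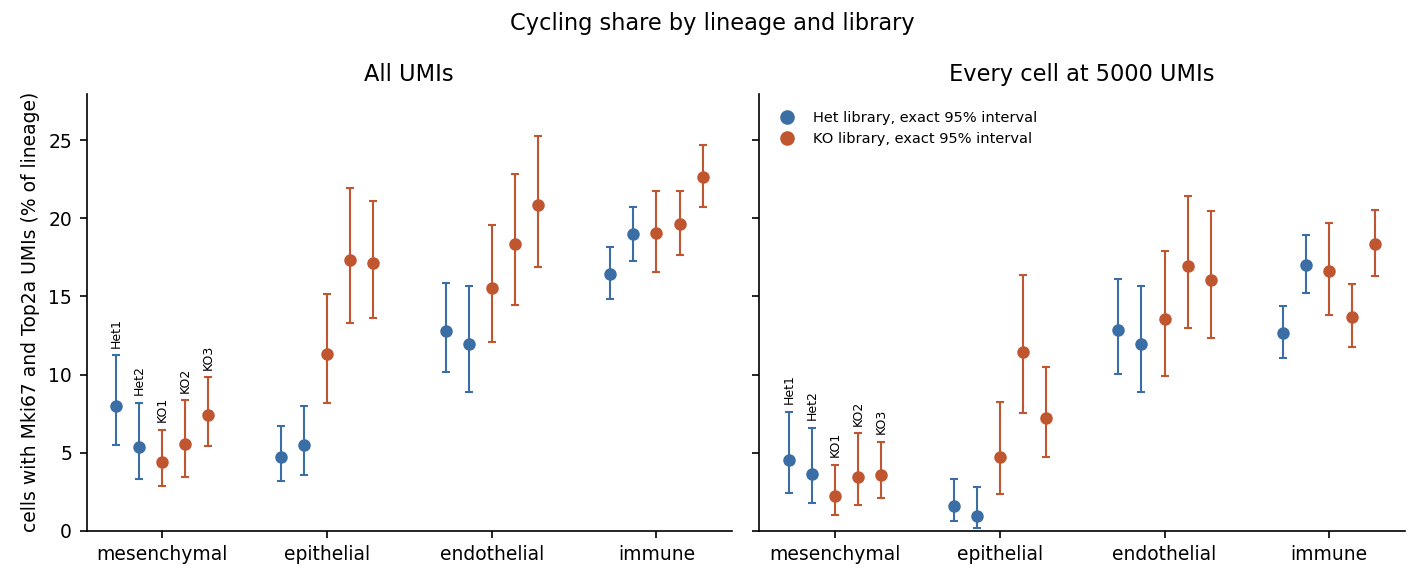
Percent of cells with UMIs of both Mki67 and Top2a (y axis) in 4 lineages (x axis), 1 point per library with its exact 95% interval, at all UMIs on the left and with every cell thinned to 5000 UMIs on the right. The mesenchymal points of both genotypes lie between 4.40% and 8% on the left, while the 3 KO epithelial points lie above both Het ones in both panels.

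The share was set beside that of other lineages in the same libraries. Epithelial cells picked by Epcam were cycling in 4.71% and 5.47% of cases in Het and 11.3%, 17.3% and 17.1% in KO. Every KO library lay above both Het libraries there, by 10.2 percentage points on average (exact permutation p = 0.1, the smallest possible). Endothelial cells, picked by Cdh5, gave 12.8% and 11.97% against 15.5%, 18.4% and 20.8% (exact permutation p = 0.2), and immune cells, picked by Ptprc, 16.5% and 18.97% against 19.1%, 19.6% and 22.7% (p = 0.2). With every cell thinned to 5000 UMIs the immune shares overlapped, at 12.7% and 17.0% against 16.6%, 13.7% and 18.4% (exact permutation p = 0.6). The epithelial and endothelial shares did not overlap there (exact permutation p = 0.2 in each). The log2 ratio of the mesenchymal to the epithelial share within a library was 0.77 and -0.03 in Het and -1.37, -1.64 and -1.21 in KO. The groups did not overlap, at a difference of -1.78 (exact permutation p = 0.1, 0.15 after Benjamini-Hochberg adjustment over the 3 ratios). Against endothelium the difference was -0.77 (exact permutation p = 0.1, adjusted 0.15) and against immune cells -0.42 (p = 0.4). At 5000 UMIs per cell the same 3 differences were -2.97, -0.74 and -0.56 (exact permutation p = 0.1, 0.1 and 0.4). The first rests on few cycling epithelial cells in Het, 7 of 436 in Het1 and 3 of 312 in Het2. With so few cells, its larger size does not show a stronger contrast at equal depth.

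Set against non-cycling mesenchymal cells, the members were higher in genes of replication and mitosis. The rule chose them by Mki67 and Top2a, so this contrast is a description without a test. Of 8989 genes with a mean of at least 10 UMIs per 1000000 of all UMIs in either state, 1988, or 22.1%, were higher in members in all 5 libraries and 951, or 10.6%, were lower. All 48 genes of the list for G2 and mitosis were higher in all 5 libraries, with a median log2 ratio of 4.95 against 0.10 for all genes. In the list for S phase and DNA replication, 39 of 40 genes were higher in all 5, with a median of 2.16. Mcm6, a subunit of the replicative helicase, was the exception at -0.10 in KO2 and 1.13 to 1.74 elsewhere. These ratios are log2 of UMIs per 1000000 plus 1, without further scaling.

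Outside Mki67 and Top2a, the highest ratios belonged to genes of the spindle and of replication. Hmmr, a spindle assembly factor, had a mean of 130 UMIs per 1000000 in members against 0.881 in non-cycling cells, with a median log2 ratio of 6.48. Pclaf, which binds the replication clamp, had a ratio of 6.40 (401 against 4.42 UMIs per 1000000). Tpx2, an activator of the mitotic kinase Aurora A, had 6.30, and Cenpf, a kinetochore protein, 5.99. Hist1h2ap, a replication-dependent histone gene with near-identical copies whose reads may be split, had 6.20. The S-phase list ran from 0.56 for Mcm4 to 4.79 for Tk1, thymidine kinase, and Rrm2, the ribonucleotide reductase subunit made in S phase, reached 4.46.

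Promoters of these genes are shown because the groups move together in the members. The window searched ran from 250 bases before to 50 after the gene start (RefSeq, GRCm38.p6). The letters TTTGAA, on either strand (TTCAAA on the other), are the core of the cell cycle genes homology region, or CHR, which the DREAM and MuvB complexes bind in late cell cycle promoters. They occurred in 29 of 40 promoters found for the G2 and mitosis list (72.5%), in 5 of 33 for the S-phase list (15.2%) and in 4893 of 27025 promoters in all (18.1%). CCAAT, on either strand, occurred in 77.5%, 60.6% and 37.9% of the same sets. An E2F site, TTTGGCGC or TTTCCCGC on either strand, occurred in 2.5%, 30.3% and 1.63%. Of 37 CHR matches in the G2 and mitosis list, 29 began within 50 bases of the gene start. These matches are letters in a window, not measured sites.

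The 4 genes of the G2 and mitosis list with the highest level follow with Mcm6 of the S-phase list, each 5′ to 3′ on the gene's strand from 120 bases before the gene start through its first 25 bases. Capitals mark the CHR letters in Ube2c, Cenpf and Prc1 and the E2F letters in Mcm6. Mcm6 (mean 59.2 CPM) was not the highest of its list and is shown as a promoter with E2F letters. Dut and Pcna, at 184 and 176 CPM, have none in the window. Cks2, at chr13:51645112-51645256 on the plus strand, has no CHR letters in the window. Ube2c lies at chr2:164769809-164769953 (plus), Cenpf at chr1:189688062-189688206 (minus), Prc1 at chr7:80294331-80294475 (plus) and Mcm6 at chr1:128359681-128359825 (minus).

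Cks2: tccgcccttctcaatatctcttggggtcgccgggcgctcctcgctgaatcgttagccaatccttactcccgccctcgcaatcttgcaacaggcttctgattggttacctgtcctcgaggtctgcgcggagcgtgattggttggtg

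Ube2c: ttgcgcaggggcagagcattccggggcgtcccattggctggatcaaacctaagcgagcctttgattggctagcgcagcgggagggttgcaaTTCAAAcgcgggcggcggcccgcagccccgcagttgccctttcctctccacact

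Cenpf: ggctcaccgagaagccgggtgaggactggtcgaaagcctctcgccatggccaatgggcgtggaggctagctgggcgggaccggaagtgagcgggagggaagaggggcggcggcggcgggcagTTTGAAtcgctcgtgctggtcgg

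Prc1: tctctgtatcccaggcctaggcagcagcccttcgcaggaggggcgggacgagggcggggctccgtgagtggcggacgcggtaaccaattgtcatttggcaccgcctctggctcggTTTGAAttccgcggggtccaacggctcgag

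Mcm6: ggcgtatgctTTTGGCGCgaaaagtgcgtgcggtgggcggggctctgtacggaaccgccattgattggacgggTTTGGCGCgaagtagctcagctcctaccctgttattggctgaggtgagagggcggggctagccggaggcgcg

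The first CHR letter lay 29 bases before the gene start in Ube2c and 5 before it in Prc1. In Mcm6 the E2F letters began 110 and 47 bases before it. Cks2, a partner of cyclin-dependent kinases, stood at 350 CPM in Het1, 521 in Het2, 320 in KO1, 638 in KO2 and 424 in KO3. Ube2c, the ubiquitin-conjugating enzyme of the anaphase-promoting complex, stood at 334 and 423 against 263, 621 and 370 CPM. Cenpf stood at 256 and 405 against 282, 518 and 327 CPM, and Prc1, which bundles the central spindle, at 342 and 364 against 226, 518 and 290 CPM. In all 4 genes KO2 was the highest library, KO1 or Het1 the lowest, and the genotypes overlapped.

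Mesenchymal marker lists went in different directions between members and non-cycling cells. Of the 34 genes for matrix and elastic fibres, none was higher in all 5 libraries and 14 were lower, with a median log2 ratio of -0.46. The 7 adventitial fibroblast markers had a median of -1.17, Clec3b among them at -1.85. Scara5 and Dpep1 had -2.25 and -2.11. In the list of G1 cyclins, kinases and inhibitors, 12 of 21 genes were higher in all 5 libraries and 2 were lower, with a median of 0.56. Against that majority, Ccnd2, a G1 cyclin, was lower in all 5, with a median of -0.19. The 5 mesothelial markers had a median of 1.71, of which 2, Wt1 among them, were higher in all 5 libraries. The 6 smooth muscle markers had a median of 0.38, and none of them was higher or lower in all 5. The 5 red-cell genes at that level, haemoglobins among them, had a median of -2.45.

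**Figure D2:**
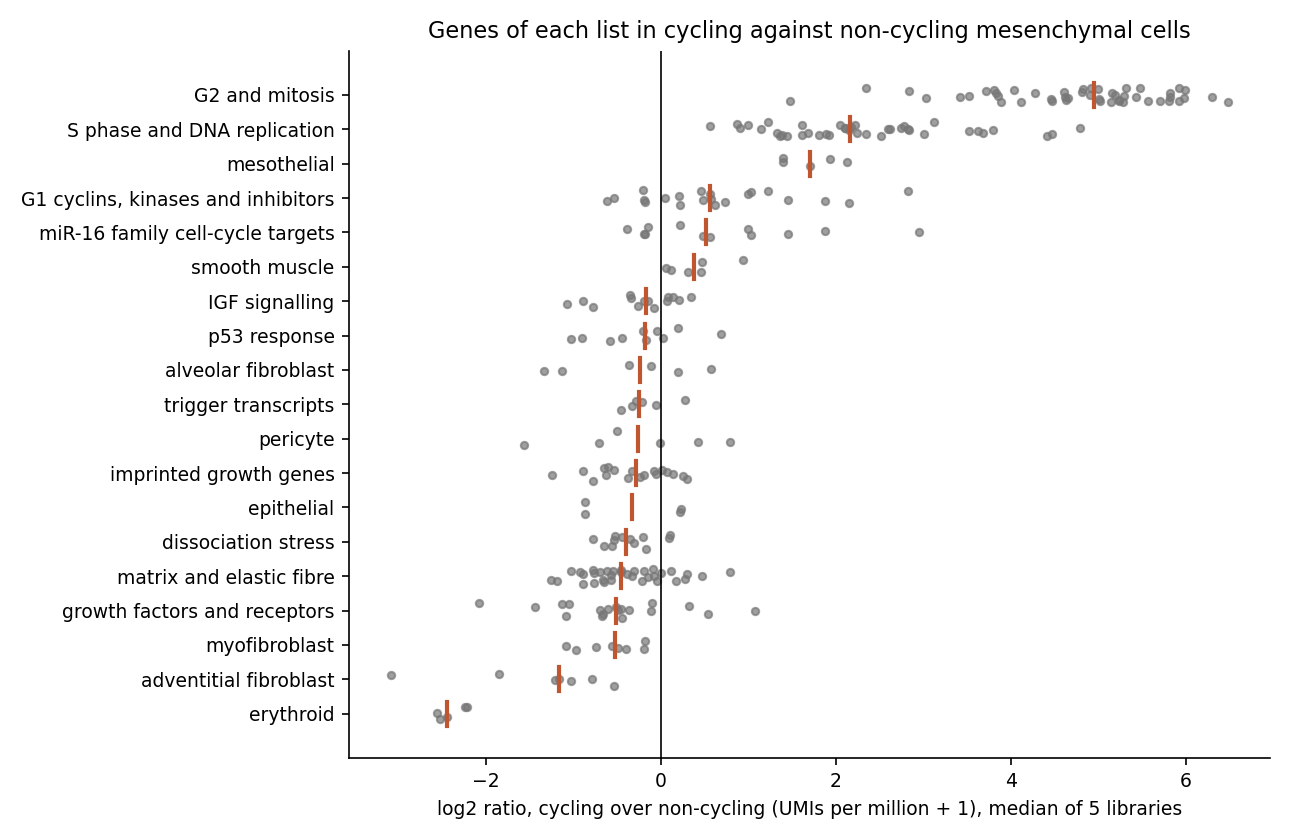
Log2 ratio of cycling over non-cycling mesenchymal cells (x axis, UMIs per 1000000 plus 1), each point a gene as the median of 5 libraries, by gene list (y axis), with the list's median as a bar. The G2 and mitosis list sits at a median of 4.95 and the S-phase list at 2.16, while the matrix list sits at -0.46.

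The members differed in which division genes they held. With each cell thinned to 5000 UMIs and without Mki67 and Top2a, 97 of 139 members held more UMIs of the G2 and mitosis list than of the S-phase list, 39 held fewer and 3 held the same. The lists differ in size, so this compares sums and is not a call of phase. Among 1724 non-cycling cells of that depth the same count was 403 with more, 1030 with fewer and 291 equal. Members ranged from 0 to 117 UMIs of the G2 and mitosis list (median 34) and from 0 to 44 of the S-phase list (median 9). In 51 members both lists reached 10 UMIs, and in 20 the lists together stayed under 10. Those 20 were 6 cells of Het1, 1 of Het2, 6 of KO1, 2 of KO2 and 5 of KO3.

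The genotypes overlapped in this balance. The share of members with more G2 and mitosis UMIs was 66.7% and 80.0% in Het and 66.7%, 81.0% and 63.6% in KO (exact permutation p = 0.8). Summed over all members, the S-phase list gave 2861 and 1969 CPM in Het and 1810, 2090 and 2839 CPM in KO (exact permutation p = 0.7). The G2 and mitosis list gave 5682 and 6969 against 4721, 9956 and 6367 CPM (exact permutation p = 0.9). In the G2 and mitosis list the KO libraries lay on both sides of the Het libraries, and in the S-phase list Het1 was highest and KO1 lowest.

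**Figure D3:**
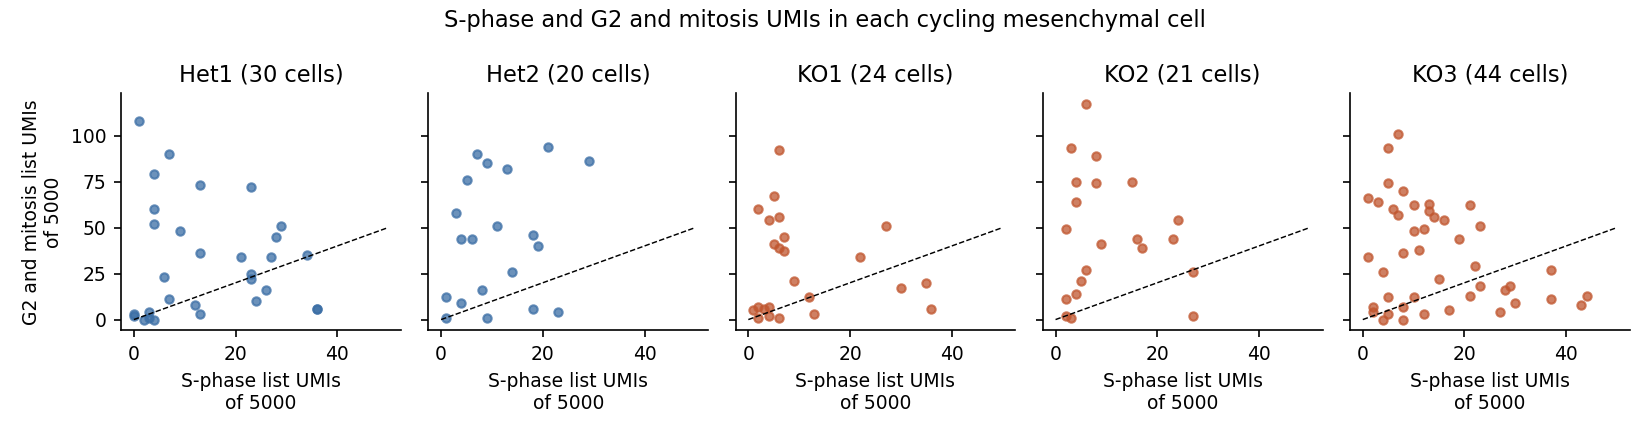
UMIs of the G2 and mitosis list (y axis) against UMIs of the S-phase list (x axis) for each of the 139 members thinned to 5000 UMIs, 1 panel per library, with the dashed line at equal numbers. Most points of every library lie above the line, 97 of 139 in all.

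No gene passed the test between genotypes in the members. edgeR's quasi-likelihood test on UMIs summed per library covered 8061 genes and called 0 (0%) in either direction at a Benjamini-Hochberg adjusted p under 0.05, with a lowest adjusted p of 0.887. At an unadjusted p under 0.05 it gave 422 genes (5.24%), 173 higher in KO (2.15%) and 249 lower (3.09%). In 1738 genes (21.6%) the groups did not overlap, 859 with KO higher (10.7%) and 879 with KO lower (10.9%). DESeq2 called 2 genes, Myl7 and Akap12, both lower in KO, at adjusted p = 0.0052 and 0.0491. With sex as a covariate 0 genes were called, 130 at an unadjusted p under 0.05, and 0 were called without KO1. The median SE of a log2 fold change was 0.32 in members and 0.18 in non-cycling cells.

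The S-phase, G2 and G1 genes held no call. Of 40 S-phase genes tested, 19 had a positive and 21 a negative log2 fold change in KO, with a median of -0.05. Of 48 G2 and mitosis genes, 35 were positive and 13 negative, with a median of 0.14 against 0.00 over all genes. Neither list had a member at an unadjusted p under 0.05. The 12 targets of the miR-15/16 family in the cell cycle split 5 positive to 7 negative, with a median of -0.04. Their summed level was 977 and 1108 CPM in Het and 931, 772 and 910 CPM in KO, each KO library below both Het libraries (exact permutation p = 0.1), but it overlapped once the mixed barcodes were left out.

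Among those targets, Ccnd3, a D-type cyclin, was 175 and 229 CPM in Het and 171, 158 and 154 CPM in KO, a log2 fold change of -0.33 (SE 0.20). Ccnd2 was 235 and 311 against 241, 103 and 197 CPM, with overlap. Igf1r, the receptor of insulin-like growth factors, was 215 and 195 against 188, 147 and 158 CPM (-0.31, SE 0.19). Ccne1, Cdc25a, Wee1 and Chek1 were each under 50 CPM in every library, and their groups overlapped. The 6 trigger transcripts split 3 and 3: Plagl1, one of the triggers for miR-322 and miR-503, was 385 and 537 against 485, 532 and 609 CPM, and Lrrc58, the other, was 140 and 101 against 86.8, 143 and 85.5 CPM. Both overlapped between genotypes. Nrep, the trigger for miR-29b, was 314 and 303 against 275, 619 and 483 CPM, with overlap. Oip5os1 (Cyrano), the trigger for miR-7, was 95.5 and 92.1 against 82.9, 68.6 and 62.8 CPM, each KO library below both Het libraries (-0.40, SE 0.21).

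No gene of the lists for p53 response and dissociation stress passed the test. Of 7 p53 response genes tested, 5 had a negative log2 fold change and 2 a positive one, Bax at 0.29 and Mdm2 at 0.18. Their summed level was 2355 and 1831 CPM in Het and 1836, 1134 and 1362 CPM in KO, with overlap (exact permutation p = 0.3). Without the mixed barcodes the p53 sums did not overlap, at 2308 and 1905 against 1678, 1071 and 1433 CPM (exact permutation p = 0.1). Nor did they with members over 60000 UMIs left out or with each member thinned to 5000 UMIs (exact permutation p = 0.2 in each). In non-cycling cells they overlapped (exact permutation p = 0.4). Of the 7 genes, Cdkn1a and Btg2 had an unadjusted edgeR p under 0.05, both lower in KO, against 3.09% of all genes tested. Cdkn1a (p21), the p53 target that stops the cycle, was 106 and 104 CPM in Het and 76.3, 64.8 and 62.0 CPM in KO (log2 fold change -0.63, SE 0.20). Btg2, an antiproliferative p53 target, was 2008 and 1508 against 1508, 833 and 1041 CPM. All 12 genes of the list for dissociation stress had a negative log2 fold change, with a median of -0.46. In 7 of 12 every KO library lay below both Het libraries, against 10.9% of all genes tested. This list holds genes that digestion itself induces, such as Fos, Jun and Hspa1a. Its summed level was 11729 and 12866 CPM in Het and 9834, 9748 and 9477 CPM in KO. Without the mixed barcodes the sums overlapped (13302 and 10501 against 12471, 7661 and 9236 CPM). In non-cycling cells 11 of the 12 genes were negative, and in 5 every KO library lay below both Het libraries, against 1823 of 11915 genes. The sums there were 13648 and 14168 against 13562, 12127 and 12835 CPM, without overlap. The part of this list in the other differences was not tested.

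The other lists of growth control also held no call. G1 cyclins, kinases and inhibitors split 9 positive to 11 negative, and the 18 imprinted growth genes 7 to 11. Of 14 genes of insulin-like growth factor signalling, 11 had a negative log2 fold change, with a median of -0.24. Igfbp4, which binds these growth factors, was 332 and 578 CPM in Het and 213, 192 and 309 CPM in KO, without overlap (-0.93, SE 0.30). Igf2 itself was 292 and 483 against 424, 438 and 414 CPM, with overlap. Among 19 growth factors and receptors, 12 were positive and 7 negative. Ptch1, the hedgehog receptor and itself a hedgehog target, was 73.5 and 43.8 against 64.5, 219 and 138 CPM, where KO1 lay between the Het libraries. Igfbp4, Igf2 and Ptch1 are named here with their values known.

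The matrix genes sat lower in KO without a call. Of 34 tested, 32 had a negative log2 fold change, with a median of -0.43, and in 13 every KO library lay below both Het libraries, against 10.9% of all genes tested. In 10, all with KO lower, the unadjusted edgeR p was under 0.05, against 3.09% of all genes. Their sum was 40641 and 50652 CPM in Het and 29549, 27349 and 35890 CPM in KO (exact permutation p = 0.1). It kept this order without the mixed barcodes (44866 and 51820 against 26278, 29789 and 37089 CPM) and with members over 60000 UMIs left out. In non-cycling cells the sums overlapped, at 52138 and 52644 CPM in Het and 43354, 39205 and 53224 CPM in KO (exact permutation p = 0.4). Gene by gene, 30 of the 34 had a negative log2 fold change there, with a median of -0.30, and 2 were called lower. In 21 every KO library lay below both Het libraries, against 1823 of all 11915 genes tested. An unadjusted edgeR p under 0.05 with KO lower was found in 20, against 744 of 11915. The lower matrix genes were thus not particular to the members. The list was taken up with earlier results of these data in view.

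Eln, elastin, was 10116 CPM in Het1, 4043 in Het2, 4461 in KO1, 1818 in KO2 and 3550 in KO3. KO1 lay above Het2, so the groups overlapped, at a log2 fold change of -1.11 (SE 0.44). The collagens Col1a1, Col1a2 and Col3a1 overlapped as well, at -0.44, -0.42 and -0.29. Chosen after their values were seen, Fn1, Loxl1 and Sparc were the lowest of the list by unadjusted edgeR p. Fn1, fibronectin, was 1412 and 1360 against 758, 492 and 819 CPM (-1.005, SE 0.24). Loxl1, which crosslinks elastin, was 469 and 352 against 262, 191 and 260 CPM, and Sparc, a collagen-binding protein, 4565 and 6543 against 3383, 3617 and 3300 CPM. In all 3 the groups did not overlap, and each had an adjusted p of 0.887 by edgeR.

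The genes with the lowest unadjusted edgeR p, picked only among those without overlap, follow as values, since none was called by edgeR. Among genes higher in KO, Slit2, a secreted guidance cue, was 27.9 and 34.7 CPM in Het and 61.8, 80.0 and 69.8 CPM in KO (log2 fold change 1.16, SE 0.26). Sox4, a transcription factor of embryonic progenitors, was 181 and 121 against 258, 362 and 331 CPM (1.07, SE 0.25). Frem2, a basement membrane protein, was 30.9 and 67.9 against 129, 156 and 105 CPM. Klhl24, a ubiquitin ligase adaptor, was 73.5 and 71.0 against 139, 131 and 115 CPM. Tdo2 and Nrg2 rested on few counts, at 1 UMI of Tdo2 in each Het library against 11 to 14 in KO.

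Among genes lower in KO, Akap12, a scaffold of kinase signalling, was 786 and 773 CPM in Het and 435, 362 and 387 CPM in KO (-0.98, SE 0.18). Mgp, an inhibitor of calcification in matrix, was 5317 and 4304 against 1885, 2208 and 2773 CPM (-1.07, SE 0.21). Wif1, a secreted inhibitor of Wnt, was 44.1 and 18.1 against 1.32, 1.91 and 2.62 CPM (-3.83, SE 0.63). That is 30 and 12 UMIs against 1, 1 and 3. Fmo1, a monooxygenase, was 76.4 and 58.9 against 18.4, 30.5 and 22.7 CPM. In all 4 the lowest Het library was above the highest KO library, which was a condition of their choice. Of all genes tested, 10.9% had this order.

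Myl7 and S100a9 belong beside markers of other cells. Myl7, a myosin light chain of atrial muscle, was 99.9 and 66.4 CPM in Het and 6.58, 17.1 and 15.7 CPM in KO (-2.65, SE 0.38). The 4 cardiac markers together were 188 and 87.6 CPM in Het and 268, 89.6 and 73.3 CPM in KO, and Nppa of the atrium was at 0 in 4 libraries. Without the mixed barcodes the cardiac sum was 63.6 and 3.57 against 107, 16.5 and 13.3 CPM. S100a9, a neutrophil gene, was 47.0 and 40.8 against 9.21, 15.2 and 15.7 CPM. The 7 immune markers other than Ptprc summed to 77.9 and 61.9 CPM in Het and 19.7, 43.8 and 53.2 CPM in KO. In red-cell barcodes S100a9 had the same order, at 0.722 and 0.528 UMIs per barcode in Het and 0.238, 0.275 and 0.254 in KO. Per member it was 1.07 and 1.35 UMIs against 0.292, 0.381 and 0.409. Myl7 overlapped in red-cell barcodes, at 0.0223 and 0.0164 against 0.0477, 0.0088 and 0.0285 UMIs per barcode. The part of other cell types and of free RNA in both genes was not tested.

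Most markers of other lineages were low in the members. The epithelial list summed to 257 and 322 CPM in Het and 258, 187 and 269 CPM in KO, of which Sftpc made up 135 to 197 CPM. Sftpc was found in 93.2% of KO3 members and in every member of the other libraries, but also in 78.9% to 98.0% of red-cell barcodes. The endothelial list stayed at or under 98.1 CPM in every library. Sox10 and Foxd3 of Schwann cells were at 0 in all members, as was Matn1 of cartilage. Haemoglobin and red-cell markers varied most, at 5109 and 4958 CPM in Het and 762, 9350 and 1972 CPM in KO. The groups overlapped in each of these lists, except for the immune list above and cartilage markers (170 and 58.9 against 49.99, 26.7 and 49.7 CPM).

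Summed markers of mesenchymal types in the members are given next. In bulk sums of this kind, more cells of a type cannot be told from more RNA of its markers in each cell. Smooth muscle markers were 1018 and 284 CPM in Het and 5599, 122 and 353 CPM in KO: KO1 stood apart, with Actg2 at 2545 and Myh11 at 1727 CPM. Without the mixed barcodes KO1 was at 543 CPM, and the groups overlapped. Mesothelial markers were 470 and 1135 against 397, 970 and 585 CPM. Nearly all of this lay in the mixed barcodes, without which the sums were 9.42 and 14.3 against 0, 13.2 and 21.3 CPM. Keratins Krt8 and Krt18, which mesothelium also makes, are among the epithelial markers that define a mixed barcode.

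Of the fibroblast markers, those of myofibroblasts and alveolar fibroblasts did not overlap between genotypes. Myofibroblast markers were 965 and 858 CPM in Het and 683, 718 and 627 CPM in KO, each KO library below both Het libraries (exact permutation p = 0.1, adjusted p = 0.60 over the 6 subtype lists). In non-cycling cells they were 1468 and 1469 against 853, 927 and 1061 CPM (exact permutation p = 0.1, adjusted p = 0.30). In members 6 of the 8 genes had a negative log2 fold change and 2 a positive one. In 1 of the 8 every KO library lay below both Het libraries, against 10.9% of all genes tested. In non-cycling cells 6 of the 8 had this order, against 1823 of 11915 genes, and 1 had the opposite order. Enpp2 held 207 of the list's 568 member UMIs in Het2. Alveolar fibroblast markers were 407 and 365 against 526, 983 and 529 CPM (exact permutation p = 0.3, adjusted p = 0.72). All 5 tested members had a positive log2 fold change. Gyg, glycogenin, was 58.8 and 57.4 against 103, 280 and 130 CPM (1.53, SE 0.44), and Npnt, a basement membrane ligand of integrins, 153 and 93.6 against 182, 391 and 206 CPM. Without the mixed barcodes the alveolar sums overlapped. In non-cycling cells they were 649 and 516 against 774, 873 and 720 CPM (exact permutation p = 0.1, adjusted p = 0.30). All 6 genes tested there had a positive log2 fold change. Adventitial markers (1278 and 3214 against 1238, 1279 and 2360 CPM) and pericyte markers (520 and 617 against 629, 366 and 468 CPM) overlapped.

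**Figure D4:**
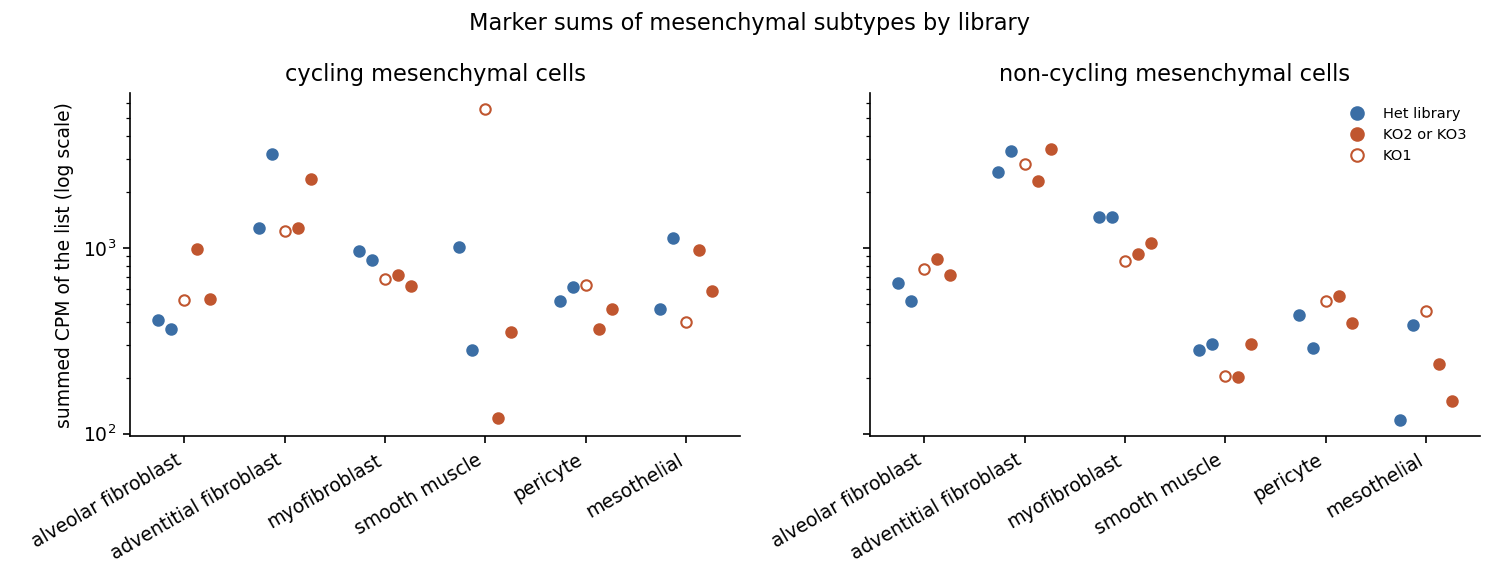
Summed CPM (y axis, log scale) of 6 subtype marker lists (x axis) in cycling (left) and non-cycling (right) mesenchymal cells, 1 point per library, with KO1 drawn open. KO1 stands at 5599 CPM for smooth muscle among cycling cells, and the KO points of the myofibroblast list lie below both Het points in both panels.

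Non-cycling mesenchymal cells, fitted alike over 11915 genes, gave 27 calls by edgeR (0.227%), 4 higher (0.0336%) and 23 lower in KO (0.193%). At an unadjusted p under 0.05 it gave 1330 genes (11.2%), and in 29.9% of genes the groups did not overlap. With sex as a covariate edgeR called none of the 11915, 712 at an unadjusted p under 0.05, with Mgp at -0.92 (adjusted p = 0.088) and Eln at -0.96 (adjusted p = 0.090). The members took no part in that fit, but they come from the same 5 embryos. Of the 27 genes, 23 were tested in members: 21 had the same sign, in 9 the groups did not overlap (21.6% over all genes tested in members), and 11 had an unadjusted p under 0.05 (5.24% over all). These counts describe the same embryos and are no independent support. Mgp was -0.91 in non-cycling cells (adjusted p = 0.010), Eln -1.09 (adjusted p = 0.010), Wif1 -2.33 (adjusted p = 0.022) and S100a9 -1.05 (adjusted p = 0.039), beside -1.07, -1.11, -3.83 and -1.69 in members. Adamts2, which processes collagen ends, was -0.77 (adjusted p = 0.022) beside -1.11, at 373 and 219 CPM in Het members and 167, 95.3 and 147 CPM in KO members. S100a9 was also lower in KO among red-cell barcodes, as given above, and the part of free RNA in its call was not tested.

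Igfbp2 and Cpa1 had opposite signs in the members. Igfbp2, which binds insulin-like growth factors, was 151 and 243 CPM in Het and 41.0, 59.1 and 53.4 CPM in KO among non-cycling cells (log2 fold change -1.95, adjusted p = 0.010). Among members it was 13.2 and 140 against 46.0, 105 and 148 CPM, with overlap. Cpa1, a carboxypeptidase, was 2.62 and 2.13 against 9.79, 10.5 and 16.0 CPM in non-cycling cells and 22.04 and 19.6 against 3.95, 9.53 and 2.62 CPM in members. The groups of Cpa1 did not overlap in either state, in opposite directions, on 3 to 15 UMIs per library in members.

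A test of the difference itself, genotype by cycling state with the library as a block, covered 11532 genes and called 0 (0%). At an unadjusted p under 0.05 it gave 502 genes (4.35%). Cpa1 had the lowest adjusted p, 0.613, at a log2 difference of -4.50 (SE 0.71), and Igfbp2 had 2.55 (SE 0.56, adjusted p = 1). Slit2, Akap12 and Fmo1, at 0.07, -0.11 and -0.38 in non-cycling cells, had differences of 1.12, -0.88 and -1.17, each with an adjusted p of 1 by edgeR. With the mixed barcodes left out, Cpa1 and Col2a1, a cartilage collagen with 38 of its 39 member UMIs in Het1, were called.

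**Figure D5:**
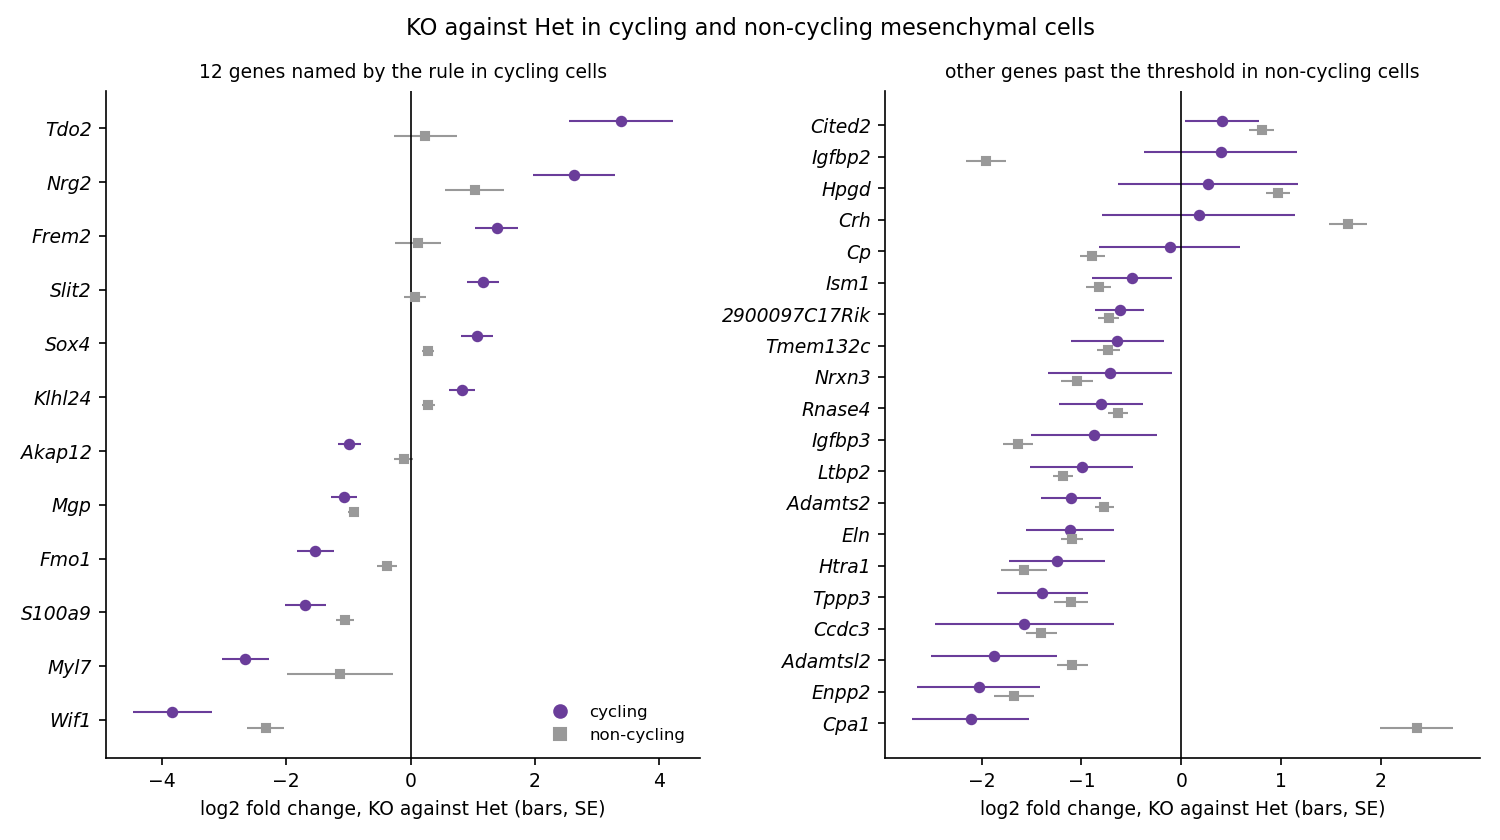
Log2 fold change of KO against Het (x axis, bars are SE) in cycling (circles) and non-cycling (squares) mesenchymal cells, for the 12 named genes of the members (left) and for the other genes called in non-cycling cells and tested in members (right). Cpa1 and Igfbp2 are the only 2 of the 23 genes shared by both tests whose circle and square lie on opposite sides of 0.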

How the data were processed

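The authors deposited raw UMI counts for every gene in every barcode. These were made with Cell Ranger 4.0.0 on mm10, per the submitters' processing notes; the annotation and strand setting are not given in the sources used here. Of 32285 gene IDs, 32235 matched GENCODE M21.

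Barcodes were filtered and members chosen as the report states. The members and gene lists were chosen with earlier results of these data known. UMIs were summed per library and state and tested with edgeR 4.0.16 (quasi-likelihood, TMM, filterByExpr, two-sided, Benjamini-Hochberg). Shares and list sums were compared with exact permutation tests over libraries, and intervals are Clopper-Pearson. The fits were tested on simulated data.

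As no gene passed, the genes named are, in each direction, the 6 with the lowest unadjusted p among those without overlap that average 10 CPM or more where they are higher. Added to them were the 4 of highest CPM in each list, and Zswim8. Genes of the rule and sex-linked, haemoglobin and mitochondrial genes were left out; further genes named, Cdkn1a, Btg2, Gyg, Npnt, Col2a1 and those given only against non-cycling cells among them, were picked with their values known. The settings varied were DESeq2 1.42.0, library-size scaling, other filters, thinning, a replicate block, sex as a covariate, doublet-scored or mixed barcodes left out, and each library left out. Leaving out members over 60000 UMIs, thinning each member before summing and the either-gene rule at 5000 UMIs were added after seeing the data. A replicate number marks no shared litter or day per the labels.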

Additional observations from a re-analysis of the deposited data

How the results depend on the processing

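Values here are KO against Het. Calls in the cycling cells were 2 with DESeq2 and 49 with no filter on low counts, the sex-linked Xist and Tsix among the 49. Leaving out KO1 or KO2 gave 0. Leaving out KO3 gave 1, which was Xist, as the KO libraries left are then female and the Het libraries male. Calls in the non-cycling cells were 82 with DESeq2 (which gave 9933 of 11915 genes no adjusted p), 444 with no filter, 0 with sex as a covariate, and 0 to 27 with each library left out (0 without KO2, 5 without KO1, 9 without Het1, 14 without Het2). The genotype by state term gave 2 with mixed barcodes left out and 0 to 4 with each library left out (2 without Het1, 4 without Het2). Under a replicate block, which pairs equal numbers and leaves KO3 without a partner, the calls were 4 in cycling and 45 in non-cycling cells. The 4 were Eln, C3 and the sex-linked Xist and Ddx3y. The deviations of equal numbers correlated at 0.08 and 0.10, and 2 pairs cannot show that the numbers pair embryos. With each library left out, the difference of the share ran from -2.22 to 0.405 (without Het1) percentage points. Likewise the summed levels ran from -614 to 278 CPM (without Het1) for the S-phase list, -781 (without KO2) to 1836 for G2 and mitosis, -1589 to 347 (without Het2) for adventitial, -414 (without KO1) to 2325 for smooth muscle and -485 to 180 (without Het2) for mesothelial markers. With mixed barcodes left out the difference was -95.7 CPM for G2 and mitosis and -4.60 CPM for smooth muscle, and with each member thinned to 5000 UMIs it was 16.3 CPM for pericyte markers. The cause of these changes was not tested. With 20 to 44 members per library and unequal cell depths, a few deep cells carry much of a library's sum.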
